A study of Mus musculus with 9 samples.

Results

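The mature neutrophil genes are 10 genes measured in CD11b+ cells of mouse liver after acetaminophen (APAP) poisoning: Csf3r, Trem1, Il1r2, Mmp8, Mmp9, Retnlg, Lrg1, Stfa2l1, G0s2 and Padi4. They were chosen by symbol, as genes known from mature neutrophils, and make up 10 of the 45777 genes in the tables. All 10 passed the filter on low values, at least 1 TPM (transcript level per length, scaled to the same total in every sample) in at least 3 of the 9 samples, as did 13820 genes in all. APAP was injected into the peritoneum to cause acute liver failure, livers were taken 48 hours later, and CD11b+ cells were isolated from the dissociated liver for bulk mRNA sequencing. CD11b is an integrin chain carried by neutrophils, monocytes and macrophages. All 9 samples had APAP and fall into 3 groups of 3 by what was given with it: PBS (titled APAP), extracellular vesicles titled HEKSIRP-EV, derived from HEK cells (a line from human embryonic kidney; HEK-EV), and vesicles titled SIRP-EV, derived from MSC (MSC-EV). Vesicles were given into a vein 8 hours after APAP. No group without APAP and no vesicle without SIRP was analysed here, and the labels give no strain, sex or age. They do not say that replicates came from separate mice, so the p-values below measure the spread between these samples, which may be technical.

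Neutrophils are made in the bone marrow under granulocyte colony-stimulating factor (G-CSF), fill their granules in a fixed order as they mature, and enter the blood as short-lived cells ready to leave it for damaged tissue. Granule proteins such as lactoferrin are made by immature cells. The genes followed here were chosen as known from mature neutrophils, but some of them, such as Mmp9 and Lrg1, encode granule proteins too. In the liver after APAP, neutrophils gather around dying hepatocytes early and are cleared as monocyte-derived macrophages take over repair.

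The label was checked against other neutrophil markers. Of 20 such markers outside the 10 genes, 19 passed the filter, and their summed level ran from 4234 to 7209 TPM in PBS, from 6419 to 8527 in HEK-EV and from 3948 to 5013 in MSC-EV. S100a8 and S100a9, the calgranulin subunits that fill the neutrophil cytosol, averaged 1345 ± 414 and 2004 ± 676 TPM in PBS (SD, n = 3). Ly6g, a surface protein used to sort mouse neutrophils, was low in all 9 samples, between 1.38 and 4.50 TPM. The summed level of 8 macrophage markers ran from 7188 to 8788 TPM in PBS, from 7519 to 8615 in HEK-EV and from 8294 to 9816 in MSC-EV, with a mean above that of the neutrophil markers in each group, so the neutrophil genes were read in a mixture of myeloid cells. In such bulk samples, fewer neutrophils and less RNA per neutrophil cannot be told apart. The eosinophil genes Prg2, Epx and Ear6 were listed at 0 in all 9 samples.

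Across the series, between 20342 and 21172 genes per sample were above 0, and the Pearson correlation between samples of a group was 0.980 to 0.993. The files hold no read counts, so the depth is unknown. Coverage divided by FPKM, a stand-in that grows with the number of reads, was 5.28 to 6.32 in PBS, 6.25 to 6.47 in HEK-EV and 6.58 to 6.84 in MSC-EV, so that all 3 MSC-EV samples lay above the other 6, as they did in genes above 0 (21119 to 21172, against 20342 to 21051). Transcripts of pancreatic acinar cells, from 12 markers, took 0.108% of all TPM of HEK-EV replicate 2 and 0.308% of MSC-EV replicate 3, against 0.00115% to 0.0143% in the other 7 samples, so these 2 samples stand apart. Mitochondrial transcripts took 7.55% to 7.90% of TPM in MSC-EV and 5.44% to 6.48% in PBS and HEK-EV. What part these differences have in the results was not tested, and without the 2 samples limma called no gene in any of the 3 comparisons, so that no call given here held without them. Values without the 2 samples are given below for many of the gene groups. The median log2 difference of the 10 genes was then 0.43 in HEK-EV against PBS, -0.33 in MSC-EV against PBS and -0.69 in MSC-EV against HEK-EV.

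The promoters of the 3 genes that passed the test below, of Il1r2, whose values ran apart from the rest, and of Mmp8, which holds matches to 2 motifs, are shown because 9 of the 10 genes shared the sign of their difference. They are stretches of the 250 bases before the RefSeq start site (assembly GRCm38.p6), outside annotated exons and read 5′ to 3′ on the gene's strand. Of the 10 genes, 9 had a promoter in the RefSeq table, Mmp9 being the other. Capitals mark matches to GAGGAA or its complement TTCCTC, letters bound by the myeloid factor PU.1, and to TTGCNNAA or its complement, a site of the C/EBP factors that drive granulocyte genes. They lie at chr16:36156561-36156810 (+) for Stfa2l1, chr17:56122002-56122196 (-) for Lrg1, chr4:126024409-126024549 (+) for Csf3r, chr1:40085852-40085984 (+) for Il1r2 and chr9:7558179-7558428 (+) for Mmp8.
Stfa2l1: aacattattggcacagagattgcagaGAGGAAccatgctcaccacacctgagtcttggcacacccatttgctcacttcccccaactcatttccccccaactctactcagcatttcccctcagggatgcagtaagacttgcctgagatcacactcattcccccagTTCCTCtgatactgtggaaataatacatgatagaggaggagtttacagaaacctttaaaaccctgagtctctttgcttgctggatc
Lrg1: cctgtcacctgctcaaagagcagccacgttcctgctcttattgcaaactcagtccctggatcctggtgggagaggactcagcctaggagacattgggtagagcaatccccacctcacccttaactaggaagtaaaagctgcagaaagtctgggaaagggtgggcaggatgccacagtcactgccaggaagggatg
Csf3r: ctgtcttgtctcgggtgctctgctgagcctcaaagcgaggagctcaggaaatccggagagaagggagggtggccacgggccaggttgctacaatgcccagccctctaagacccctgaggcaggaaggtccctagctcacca
Il1r2: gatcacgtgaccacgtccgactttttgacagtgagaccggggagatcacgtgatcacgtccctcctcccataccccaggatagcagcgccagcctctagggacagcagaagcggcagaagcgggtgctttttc
Mmp8: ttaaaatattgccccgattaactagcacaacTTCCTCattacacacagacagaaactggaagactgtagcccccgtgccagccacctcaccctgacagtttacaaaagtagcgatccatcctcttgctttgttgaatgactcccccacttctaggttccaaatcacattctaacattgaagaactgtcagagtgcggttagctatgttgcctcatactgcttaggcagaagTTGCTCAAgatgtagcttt
Both strands of the whole 250 bases were searched, and no match overlapped another. GAGGAA was found in 4 of the 9 promoters (Csf3r, in bases not shown, Mmp8, Stfa2l1 and Trem1), against 23.3% of 32851 promoters of the same length. TTGCNNAA was found in 2 (Mmp8 and Retnlg), against 9.56%. TGANTCA, the AP-1 site, and TATAAA, the TATA box, were each found in Padi4 alone, against 6.75% and 12.4%. A match is a description of the letters and not of a bound site. The RefSeq start sites used for Csf3r and Il1r2 lay 1218 and 1401 bases inside the gene as the files bound it.

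Over the 9 samples, the 10 genes ranged from 30.4 TPM for Padi4 to 515 TPM for Csf3r on average. Csf3r came first, followed by G0s2 (277), Retnlg (208), Il1r2 (198), Mmp9 (120.1), Trem1 (108), Mmp8 (92.3), Stfa2l1 (66.1), Lrg1 (42.0) and Padi4. TPM is per transcript length, so these levels can be set beside each other. The lowest Csf3r sample (439) was above the highest G0s2 sample (405), and every other pair of neighbours in that order overlapped in range. By mean level all 10 genes lay between the 89.3 and 99.4 percentiles of all 45777 genes in the tables, including those that did not pass the filter.

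**Figure D1:**
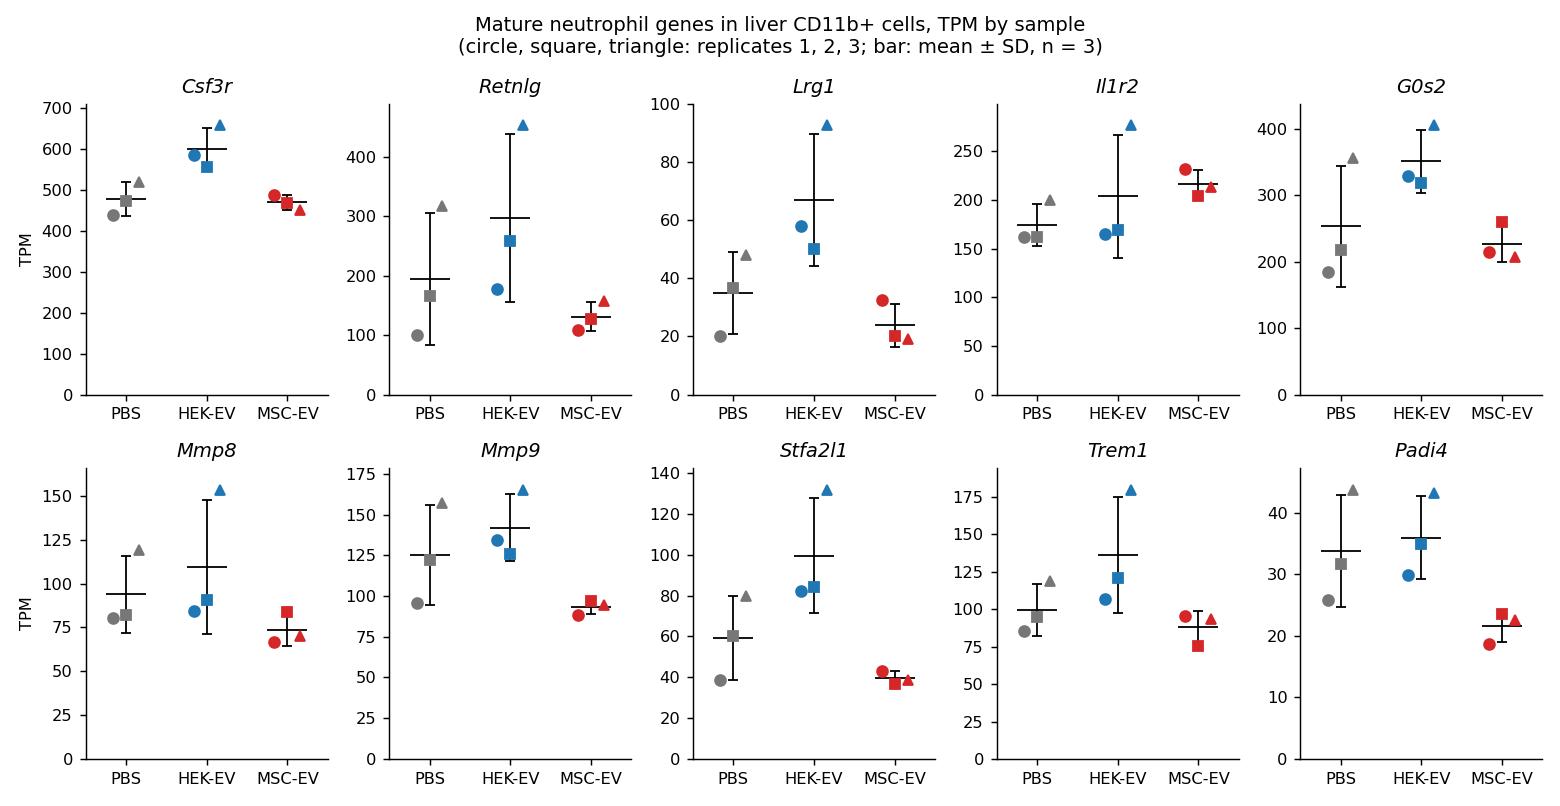
TPM of the 10 genes in each of the 9 samples, with group on the x axis, 1 panel per gene, axes from 0, and the mean ± SD of 3 samples as bars. HEK-EV replicate 3 (blue triangle) was the highest of its group in all 10 genes, and every MSC-EV sample lay below every HEK-EV sample in 9 genes, Il1r2 being the exception.

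The receptors come first. Csf3r (gene ID 12986, chr4:126023441-126044975, + strand, mm10) encodes the receptor for G-CSF, which drives neutrophil production and survival. It measured 439, 474 and 519.7 TPM in PBS, 585, 555 and 658 in HEK-EV, and 488, 469 and 451 in MSC-EV. All 3 HEK-EV samples lay above every sample of the other groups, while PBS and MSC-EV overlapped. Csf3r fell by 0.35 on the log2(TPM + 1) scale in MSC-EV against HEK-EV (SE 0.0815, adjusted p = 0.0402, limma), where 3 of the 10 genes were called lower and none higher, against 5.91% of all genes tested called in either direction and 4.40% called lower. The log2 difference was 0.33 in HEK-EV against PBS (adjusted p = 0.999) and -0.02 in MSC-EV against PBS (adjusted p = 0.903). An antisense transcript, Gm32908, overlaps 1214 bases of it at a mean of 4.93 TPM, and the strand setting of the counting is not given in the sources used here.

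Trem1 (58217, chr17:48232713-48246927, +) is an activating receptor of neutrophils and monocytes that amplifies inflammatory signals. It measured 85.3, 94.7 and 119 TPM in PBS, 107, 121 and 180.0 in HEK-EV, and 95.2, 75.5 and 93.2 in MSC-EV. The MSC-EV samples were below all HEK-EV samples and within the range of PBS or under it. The difference of -0.59 on the log2 scale between MSC-EV and HEK-EV did not pass the test (SE 0.191, adjusted p = 0.0989). Against PBS it was 0.42 in HEK-EV and -0.17 in MSC-EV, with adjusted p of 0.999 and 0.653. Without HEK-EV replicate 3 the differences were -0.37 from HEK-EV and, for HEK-EV against PBS, 0.20.

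Il1r2 (16178, chr1:40084692-40125230, +) is the decoy receptor that binds interleukin 1 without signalling. It measured 161.5, 162 and 199 TPM in PBS, 165, 169 and 277 in HEK-EV, and 232, 204 and 213 in MSC-EV. Here the MSC-EV samples were the ones that stood above PBS with no overlap, and HEK-EV overlapped both. The log2 difference was 0.32 in MSC-EV against PBS (95% interval -0.09 to 0.72, adjusted p = 0.34), 0.19 in HEK-EV against PBS and 0.13 in MSC-EV against HEK-EV, and none of the 3 passed the test. Il1r2 was the only gene of the 10 with a positive difference in either MSC-EV comparison, and its difference from HEK-EV was -0.002 without HEK-EV replicate 1 and reached 0.37 when replicate 3 was dropped. Set against Csf3r, its TPM ratio was 0.364 ± 0.0215 in PBS, 0.336 ± 0.0743 in HEK-EV and 0.461 ± 0.0222 in MSC-EV (SD, n = 3), with the lowest MSC-EV sample at 0.435 and the highest of the other 6 at 0.421. The antisense Gm16894 overlaps 1160 bases of Il1r2 at a mean of 1.63 TPM.

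Next are the proteases and secreted proteins. Mmp8 (17394, chr9:7558429-7568486, +), neutrophil collagenase, measured 80.1, 82.2 and 119 TPM in PBS, 84.5, 90.5 and 154 in HEK-EV, and 66.5, 83.7 and 70.3 in MSC-EV. MSC-EV lay below HEK-EV by a small gap, with its replicate 2 less than 1 TPM under the lowest HEK-EV sample. The log2 difference was -0.52 (SE 0.227, adjusted p = 0.204), and -0.25 without HEK-EV replicate 3. Mmp9 (17395, chr2:164940326-164955850, +), the gelatinase of neutrophil granules, measured 95.9, 122 and 157 TPM in PBS, 135, 126 and 165 in HEK-EV, and 88.6, 97.0 and 94.5 in MSC-EV. MSC-EV was again below all of HEK-EV and overlapped only PBS replicate 1. The log2 difference of -0.59 against HEK-EV (SE 0.161, adjusted p = 0.0624) and of -0.39 against PBS (SE 0.161, adjusted p = 0.187) did not pass.

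Retnlg (245195, chr16:48872608-48874498, +), a resistin-like protein secreted by neutrophils, varied 4.50-fold between its lowest and highest sample. It measured 101, 166 and 317 TPM in PBS, 178, 259 and 454 in HEK-EV, and 109, 127 and 157 in MSC-EV. PBS overlapped both other groups, and MSC-EV had the narrowest range. The log2 difference between MSC-EV and HEK-EV was -1.08 with an SE of 0.417 (adjusted p = 0.156), and -0.72 without HEK-EV replicate 3.

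Lrg1 (76905, chr17:56119678-56121946, -) encodes a leucine-rich glycoprotein of granules and plasma that modifies TGF-beta signalling. It measured 20.2, 36.7 and 48.2 TPM in PBS, 58.1, 50.1 and 92.8 in HEK-EV, and 32.4, 20.1 and 19.1 in MSC-EV. HEK-EV lay above all 6 other samples. Lrg1 fell by 1.44 on the log2 scale in MSC-EV against HEK-EV (SE 0.332, adjusted p = 0.0388, limma), the largest difference among the 10 genes in that comparison. Against PBS the log2 difference was 0.95 in HEK-EV (95% interval 0.20 to 1.70, adjusted p = 0.999) and -0.49 in MSC-EV (adjusted p = 0.425). Lrg1 is also made by hepatocytes, whose 12 markers summed to 712 to 823 TPM in MSC-EV, 354 to 547 in HEK-EV and 428 to 511 in PBS. Their part in the Lrg1 levels was not tested.

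Stfa2l1 (268885, chr16:36156811-36161948, +) encodes a stefin A, a cytosolic inhibitor of cathepsins. It measured 38.5, 60.1 and 79.6 TPM in PBS, 82.0, 84.4 and 132 in HEK-EV, and 43.2, 36.9 and 38.6 in MSC-EV. The lowest HEK-EV sample was above the highest PBS sample, and MSC-EV overlapped only the lower end of PBS. Stfa2l1 fell by 1.28 in MSC-EV against HEK-EV (SE 0.251, adjusted p = 0.0263, limma). Of its 50-base stretches of transcript, 24.6% were also found in other genes, chiefly Stfa2, so short reads can be split between family members. No 100-base stretch of Stfa2l1 was shared. Csf3r shared 10.7% of 50-base and 0.376% of 100-base stretches, and the other 8 genes shared none of either length.

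G0s2 and Padi4 act inside the cell. G0s2 (14373, chr1:193272160-193273188, -) inhibits the triglyceride lipase Pnpla2 and so keeps stored fat from being broken down. It measured 185, 217 and 356 TPM in PBS, 329, 319 and 405 in HEK-EV, and 214, 259 and 208 in MSC-EV. PBS replicate 3 reached the HEK-EV range while the other PBS samples were in or below the MSC-EV range. The log2 difference of -0.63 between MSC-EV and HEK-EV did not pass (SE 0.213, adjusted p = 0.114). Padi4 (18602, chr4:140745508-140774239, -) converts arginine to citrulline in histones and is needed for neutrophil extracellular traps. It measured 25.8, 31.7 and 43.7 TPM in PBS, 29.8, 34.8 and 43.1 in HEK-EV, and 18.7, 23.6 and 22.5 in MSC-EV. MSC-EV was below all 6 other samples. Its log2 difference was -0.60 against PBS (SE 0.19, adjusted p = 0.0986) and -0.70 against HEK-EV (SE 0.19, adjusted p = 0.0615).

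**Figure D2:**
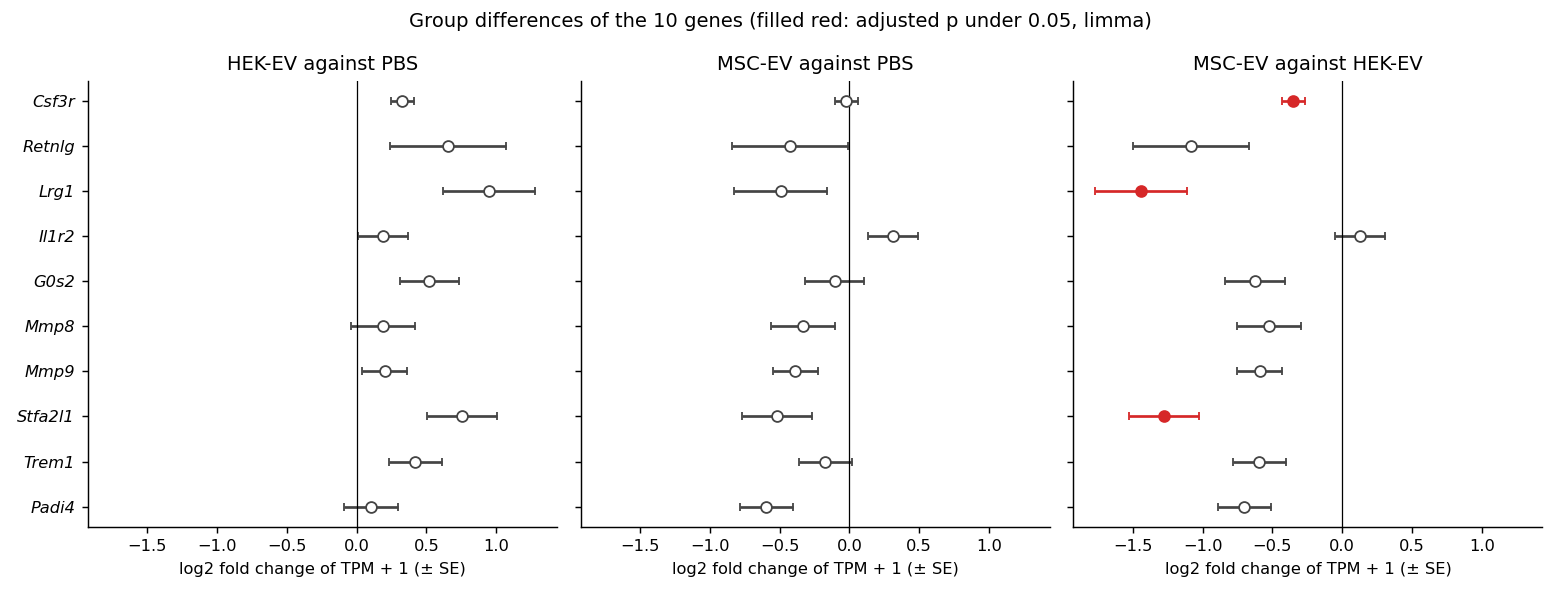
Log2 fold change of TPM + 1 with its SE for each of the 10 genes (rows) in the 3 comparisons (panels), filled red where limma's adjusted p was under 0.05. All 10 genes lie above 0 for HEK-EV against PBS with none called, and Csf3r, Lrg1 and Stfa2l1 are called lower for MSC-EV against HEK-EV.

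MSC-EV and HEK-EV differ in the cells that made the vesicles. Of the 10 genes, 9 were lower in MSC-EV than in HEK-EV, Il1r2 being the exception, and 53.8% of all genes tested lay below 0. In the same 9 genes no MSC-EV sample overlapped a HEK-EV sample, as in 17.5% of all genes tested in that direction. Their median log2 difference over all 10 was -0.61, beside -0.02 over all genes tested. With the depth stand-in as a covariate the median was -0.835 and 7 were called, in a fit that called 1449 of the 13820 genes tested. All 9 had an unadjusted p under 0.05, as did 23.3% of all genes tested, and Csf3r, Lrg1 and Stfa2l1 passed the threshold after adjustment. Stfa2l1 was called under 13 of 21 other settings, Lrg1 and Csf3r under 7 each, and the sign of the 9 lower genes did not change under any of the 21. None of the 3 calls held when any 1 of the 3 HEK-EV or 3 MSC-EV samples was left out, with differences of -0.40 to -0.28 for Csf3r, -1.67 to -1.18 for Lrg1 and -1.40 to -1.06 for Stfa2l1, and Stfa2l1 alone was called without PBS replicate 2. Without HEK-EV replicate 3 the differences were -0.28 for Csf3r (adjusted p = 0.112), -1.18 for Lrg1 (adjusted p = 0.112) and -1.06 for Stfa2l1 (adjusted p = 0.0721). Without the 2 samples rich in acinar transcripts they were -0.38, -1.49 and -1.36, with adjusted p of 0.1055, 0.112 and 0.0913, and limma called no gene, with 2874 at an unadjusted p under 0.05.

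**Figure D3:**
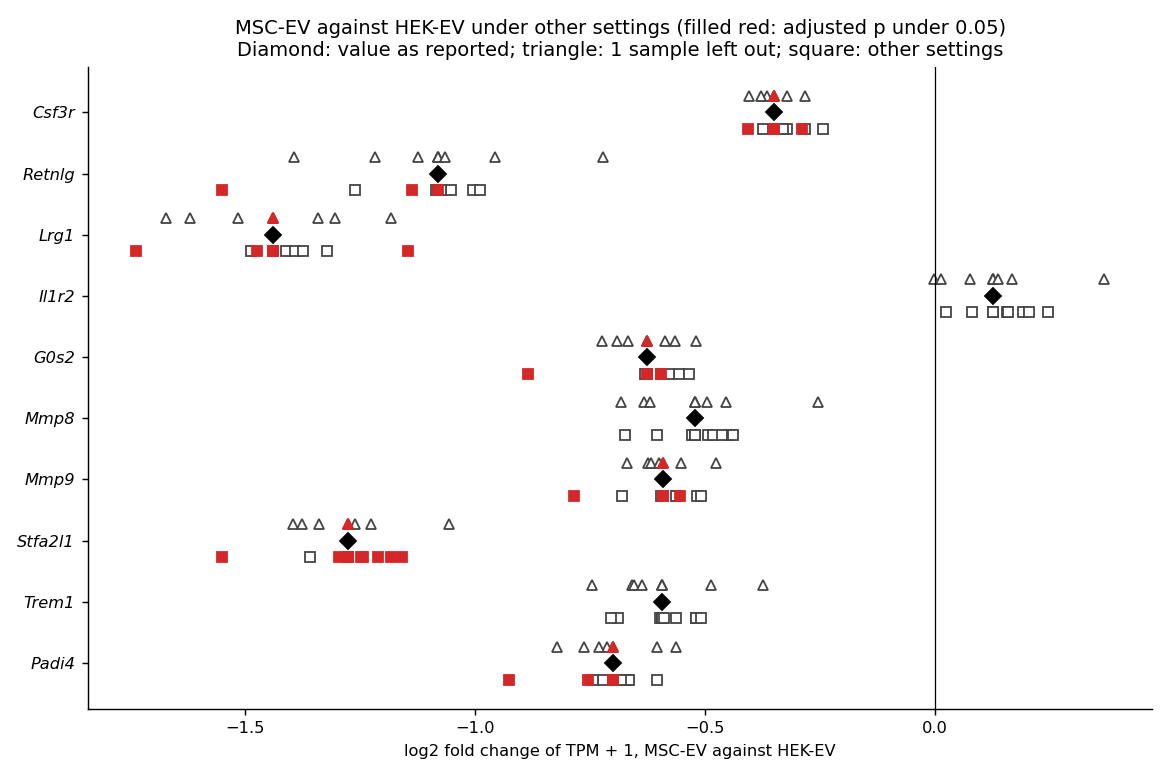
Log2 fold change of TPM + 1 for MSC-EV against HEK-EV (x axis) for each gene as reported (diamond), with 1 sample left out (triangle) and under the other settings (square), with triangles and squares filled red where the adjusted p was under 0.05, drawn on top where symbols overlap; diamonds are black throughout. In 9 genes every symbol lies left of 0, and Il1r2 runs from -0.002 to 0.37.

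Against PBS, the HEK-EV group was higher in all 10 genes, with a median log2 difference of 0.38 beside 0.03 over all genes tested, of which 61.0% lay above 0. The median was 0.23 without HEK-EV replicate 3 and 0.16 with depth as a covariate, with 7 genes above 0 in each. No gene of the 10 and none of the 13820 was called with limma (0%), and 4 of the 10 (Csf3r, Lrg1, G0s2 and Stfa2l1) and 495 of the 13820 (3.58%) had an unadjusted p under 0.05. Csf3r, Lrg1 and Stfa2l1 did not overlap between the groups, as in 5.51% of all genes tested in that direction. The log2 differences not yet given were 0.76 for Stfa2l1, 0.66 for Retnlg, 0.52 for G0s2, 0.20 for Mmp9, 0.19 for Mmp8 and 0.10 for Padi4. With 1 sample left out the differences ran from 0.26 to 1.085 for Retnlg, 0.61 to 1.22 for Lrg1, 0.48 to 0.997 for Stfa2l1, 0.33 to 0.80 for G0s2 and 0.03 to 0.38 for Mmp9, each lowest without PBS replicate 1 and highest without PBS replicate 3. Retnlg was at 0.05 and G0s2 at 0.19 with the depth stand-in in the fit. The 3 genes without overlap became 1 with FPKM or median-of-ratios scaling and 9 without PBS replicate 3, the highest PBS sample in all 10 genes. Leaving out a sample can only reduce overlap, for any gene. The share of all genes without overlap under these settings is not given, so these counts cannot be set against it. Without HEK-EV replicate 3, Il1r2, Mmp8 and Padi4 turned to -0.05, -0.08 and -0.03.

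The MSC-EV group was lower than PBS in 9 of the 10 genes, with a median of -0.36 beside 0.01 over all genes tested, of which 47.7% lay below 0. The median was -0.09 without PBS replicate 3, with 6 genes below 0, -0.21 with acinar share as a covariate and -0.765 with depth as a covariate. No gene of the 10 was called by limma, against 5.11% of all genes tested, and Mmp9 and Padi4 had an unadjusted p under 0.05, as did 23.0% of all genes tested. Il1r2 (above) and Padi4 (below) did not overlap between the groups, against 26.0% in either direction. Stfa2l1 was at -0.52, Retnlg at -0.425, Mmp8 at -0.33 and G0s2 at -0.105 on the log2 scale. The 2 genes without overlap became 1 with FPKM or median-of-ratios scaling, 6 without PBS replicate 1 and 4 without MSC-EV replicate 2. PBS replicate 1 was the lowest PBS sample in all 10 genes. The 26.0% is the share with all samples kept, and the share of all genes under these settings is not given. Without PBS replicate 1, Mmp9, Padi4 and Stfa2l1 were called lower by limma, at -0.56, -0.77 and -0.79 (adjusted p = 0.0282, 0.0273 and 0.0383). That fit called 1881 genes in all, against 706 with all samples. It put Lrg1 at -0.83, Retnlg at -0.82, G0s2 at -0.30 and Trem1 at -0.28. Without PBS replicate 3, Csf3r, Retnlg and G0s2 turned to 0.04, 0.004 and 0.17, while Trem1 was at -0.04, Mmp8 at -0.15, Mmp9 at -0.21, Lrg1 at -0.225, Stfa2l1 at -0.28 and Padi4 at -0.40. Trem1 was at -0.07 without MSC-EV replicate 2. The comparisons share their PBS, HEK-EV or MSC-EV samples, so their values are not independent of each other.

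**Figure D4:**
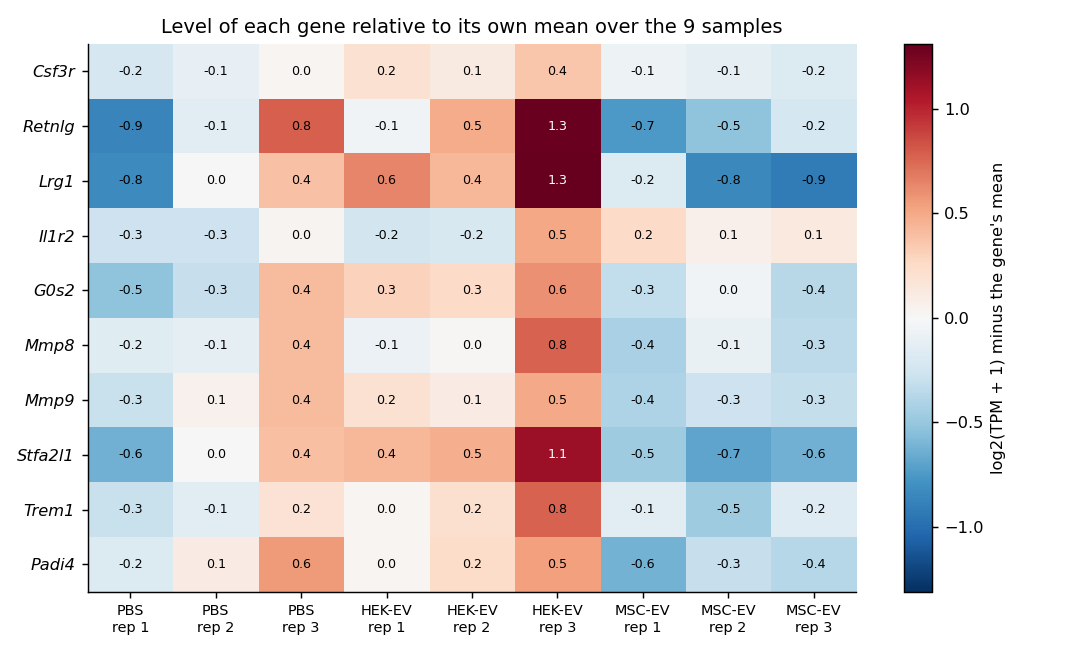
Heat map of log2(TPM + 1) of each gene (rows) in each sample (columns) minus the gene's mean over the 9 samples, red above and blue below it. PBS replicate 1 is the lowest and PBS replicate 3 the highest PBS sample in all 10 genes, and all 3 MSC-EV samples lie below the mean in 9 rows and above it in that of Il1r2.

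The genes also shared their highest sample within PBS and within HEK-EV. PBS replicate 1 was lowest and PBS replicate 3 highest of the PBS samples in all 10 genes, and HEK-EV replicate 3 was highest of its group in all 10 and of all 9 samples in 9. In MSC-EV no such order was seen, replicate 1 being highest in 5 genes, replicate 2 in 4 and replicate 3 in 1. The summed level of the 10 genes was 1232, 1446 and 1959 TPM in PBS, 1754, 1809 and 2560 in HEK-EV, and 1387, 1396 and 1366 in MSC-EV. The spread was thus 1546 ± 374 in PBS, 2041 ± 450 in HEK-EV and 1383 ± 15.4 in MSC-EV (SD, n = 3), and MSC-EV lay inside the PBS range. Over the 9 samples, each gene's Pearson correlation with the mean of the other 9 was between 0.832 (Padi4) and 0.953 (Stfa2l1), except for Il1r2 at 0.317. The genes share the same 9 libraries, each with its own depth and cell mixture, and the correlations are given as a description.

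Outside the 10, the genes whose pattern over the 9 samples was most like the mean of the members, among 9577 compared, were Wfdc21 (r = 0.983), Slpi (0.972), Mapk13 (0.970), Sfxn5 (0.965) and Cstdc4 (0.960). Wfdc21 measured 19.6 ± 8.97 TPM in PBS, 33.2 ± 20.9 in HEK-EV and 12.2 ± 1.78 in MSC-EV (SD, n = 3). Slpi, an inhibitor of neutrophil elastase, measured 147 ± 37.6, 193 ± 37.6 and 117 ± 11.8 TPM in the same order. Wfdc21 and Slpi stand in the list of neutrophil markers, and Cstdc4 belongs to the stefin A genes.

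The other neutrophil markers had the same sign in MSC-EV against HEK-EV. Of the 19 past the filter, 19 were lower in MSC-EV than in HEK-EV, with a median of -0.70, and 4 were called lower by limma, beside 53.8% of all genes tested below 0 and 4.40% called lower. Itgam, the CD11b chain itself, was at -0.70 (adjusted p = 0.0257). Pglyrp1, a peptidoglycan-binding granule protein, was at -0.90 (adjusted p = 0.0267) and the neutrophil surface protein Cd177 at -0.70 (adjusted p = 0.0341). Fpr1, a formyl peptide receptor, was at -0.71 (adjusted p = 0.04955). Over the 21 other settings between 17 and 19 markers stayed below 0, and between 0 and 10 were called. Without the acinar-rich samples these 4 were at -0.835, -0.882, -0.824 and -0.811 in the same order, with adjusted p of 0.0641 to 0.117. Against PBS, 15 of the 19 were lower in MSC-EV, where Cd177 alone was called (-0.77, adjusted p = 0.031, and -0.83 with 0.0768 without the acinar-rich samples, beside 5.11% of all genes tested called), and 17 of 19 were higher in HEK-EV with none called. Itgam measured 329.8 ± 44.3 TPM in PBS, 372 ± 54.1 in HEK-EV and 229 ± 29.6 in MSC-EV (SD, n = 3), the gene whose protein the cells were isolated by.

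Granule proteins of immature neutrophils were mixed in sign. Of 9 genes, 6 passed the filter, 3 of them above and 3 below 0 in MSC-EV against HEK-EV, and the other 3 were under 1 TPM in all 9 samples. Ltf, lactoferrin, was called higher in MSC-EV, at 6.30 ± 1.38 TPM against 2.94 ± 0.0545 in PBS and 2.20 ± 0.702 in HEK-EV (SD, n = 3), a log2 difference of 0.87 against PBS and 1.20 against HEK-EV (adjusted p = 0.0348 and 0.0205, limma), called under 9 and 15 of 20 other settings. Without the acinar-rich samples the differences were 0.76 and 1.12 (adjusted p = 0.12 and 0.0732). Ngp and Camp, granule proteins of the same stage, had log2 differences of 1.02 and 0.98 against HEK-EV with adjusted p of 0.108 and 0.0741. Lcn2, which is also induced in activated cells, was at -1.48 (adjusted p = 0.113). Whether the granule genes differ from the mature genes in their response was not tested.

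**Figure D5:**
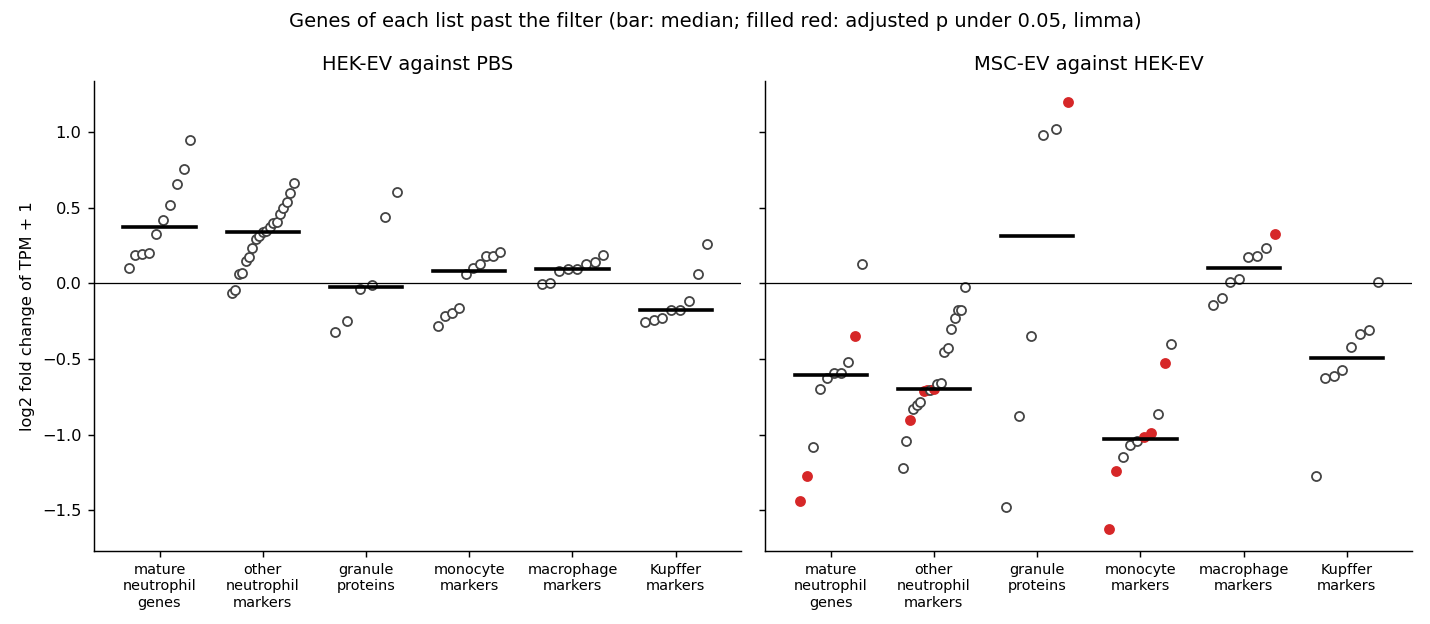
Log2 fold change of TPM + 1 (y axis) of each gene past the filter in 6 lists (x axis), with the list's median as a bar, for HEK-EV against PBS and MSC-EV against HEK-EV, filled red where limma's adjusted p was under 0.05. The mature neutrophil genes and the other neutrophil markers have medians of 0.38 and 0.34 in the left panel and of -0.61 and -0.70 in the right one, beside -1.03 for monocyte markers in the right one.

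Genes of the pathways around the members were read from lists. Of 15 genes of G-CSF and neutrophil receptor signalling other than Csf3r, 6 were called lower and none higher in MSC-EV against HEK-EV, and 3 lower and none higher against PBS, where 5.91% and 5.11% of all genes tested were called in either direction. Without the acinar-rich samples none of these calls held. Stat3, which carries the Csf3r signal, measured 115 ± 10.2 TPM in PBS, 124.5 ± 10.4 in HEK-EV and 89.8 ± 2.61 in MSC-EV (SD, n = 3), and was lower than both (-0.35 and -0.46, adjusted p = 0.0406 and 0.0217), called under 6 and 15 of 21 other settings and at -0.35 and -0.52 without the acinar-rich samples (adjusted p = 0.0933 and 0.0641). Ltb4r1, the leukotriene B4 receptor, fell by 1.01 against PBS and by 0.88 against HEK-EV (adjusted p = 0.0119 and 0.0205), called under 17 and 15 of 21 other settings and at -0.96 and -0.79 without the acinar-rich samples (adjusted p = 0.0532 and 0.0746). Jak1 and Csf2rb were among the 6, at -0.28 and -0.33. Csf3, the ligand of Csf3r, was under 1 TPM in every sample. HEK-EV against PBS had no call in this list, nor among any of the 13820 genes tested.

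Among 6 interleukin 1 genes other than Il1r2, Il1rap alone was called, lower by 0.55 in MSC-EV against HEK-EV (adjusted p = 0.0282), and by 0.67 without the acinar-rich samples (adjusted p = 0.0641). Of all genes tested, 5.91% were called in MSC-EV against HEK-EV. Il1rap is the accessory chain that the signalling receptor needs. Il1b measured 1674 ± 434 TPM in PBS, 2476 ± 422 in HEK-EV and 1700.0 ± 190.0 in MSC-EV (SD, n = 3), a log2 difference of -0.54 between the vesicle groups (adjusted p = 0.114). Il1rn, the receptor antagonist, was at 0.40 in MSC-EV against PBS (adjusted p = 0.186), and Il1r1, the signalling receptor, was at 2.09 TPM or less on average in each group.

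Of 6 TREM genes other than Trem1, 3 were called in both MSC-EV comparisons, beside 5.11% of all genes tested called against PBS and 5.91% against HEK-EV. None was called in HEK-EV against PBS, where none of the 13820 genes was. Trem3, another activating receptor of myeloid cells, fell by 0.95 against PBS and by 1.03 against HEK-EV (adjusted p = 0.0386 and 0.0292), and Treml4 fell by 0.87 and 0.96 (adjusted p = 0.0187 and 0.0205). Trem2, the lipid-sensing receptor of macrophages, was higher by 0.54 and 0.57 (adjusted p = 0.038 and 0.0306). Of 21 other settings, Trem3 was called under 7 and 11, Treml4 under 15 and 15, and Trem2 under 10 and 13. Without the acinar-rich samples none of the 3 was called, at -0.90 and -1.07 for Trem3, -1.002 and -1.16 for Treml4, and 0.60 and 0.68 for Trem2 (adjusted p of 0.0532 to 0.115). Of 6 stefin genes other than Stfa2l1, Stfa2 and Cstdc4 were called lower in MSC-EV against HEK-EV, at -0.95 and -1.23 (adjusted p = 0.0332 and 0.0257), and were at -0.99 and -1.31 without the acinar-rich samples (adjusted p = 0.1065 and 0.0844). Stfa2 was near the filter at 1.67 ± 0.391 TPM in HEK-EV and 0.374 ± 0.113 in MSC-EV (SD, n = 3), and Csta1 was listed at 0 throughout.

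Of 10 other metalloproteinase genes and inhibitors, Mmp14 and Timp2 were called higher in MSC-EV against PBS (0.66 and 0.89, adjusted p = 0.0499 and 0.038), and Timp2 also against HEK-EV (0.81, adjusted p = 0.0447). Of all genes tested, 5.11% and 5.91% were called in these 2 comparisons. Of 21 other settings, Mmp14 was called under 5 and Timp2 under 9 and 11. Without the acinar-rich samples Mmp14 was at 0.85 and Timp2 at 0.98 in both comparisons, none called (adjusted p = 0.0532, 0.0831 and 0.0959). Mmp14 is a membrane-bound protease and Timp2 an inhibitor that works with it. Of 4 lipase genes around G0s2, Lipe, hormone-sensitive lipase, was called lower in MSC-EV against PBS (-0.44, adjusted p = 0.0477), under 5 of 21 other settings and not without the acinar-rich samples (-0.48, adjusted p = 0.102). Pnpla2, the lipase that G0s2 inhibits, measured 63.1 ± 1.85, 64.4 ± 4.82 and 66.7 ± 6.65 TPM in PBS, HEK-EV and MSC-EV (SD, n = 3). Of 5 TGF-beta genes around Lrg1, Tgfb1 was called lower in MSC-EV against HEK-EV (-0.36, adjusted p = 0.0215), and was at -0.39 without the acinar-rich samples (adjusted p = 0.0641). Padi2 was the one other deiminase past the filter, at -0.32 against HEK-EV (adjusted p = 0.183), and Retnla the one other resistin gene, at -0.13 (adjusted p = 0.907), with -0.59 without HEK-EV replicate 3 and 0.38 without the acinar-rich samples.

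Markers of other cells moved with the same comparisons. All 10 monocyte markers were lower in MSC-EV than in either group, and 5 were called in each of these comparisons, beside 5.11% of all genes tested called against PBS and 5.91% against HEK-EV, among them Vcan at -1.42 against PBS and -1.63 against HEK-EV (adjusted p = 0.0251 and 0.0207). Their summed level ran from 4156 to 5101 TPM in MSC-EV, from 8468 to 10780 in HEK-EV and from 6693 to 13270 in PBS. All 12 hepatocyte markers were higher in MSC-EV than in either group, 3 of them called against PBS and 5 against HEK-EV, and of 5 biliary markers Krt19 and Epcam were called higher in both. The biliary marker Sox9 passed the filter through the 3 MSC-EV samples alone, so its call is not counted. Pf4, a platelet chemokine, was called higher in MSC-EV by 0.83 against PBS and 0.86 against HEK-EV (adjusted p = 0.0348 and 0.0292), at 254 to 350 TPM in MSC-EV and 129 to 197 in the other 6 samples. The other erythroid and platelet markers past the filter, of 6 in the list, were not called, with the haemoglobin gene Hba-a1 at -0.595 and -0.25 and the platelet chemokine Ppbp at -0.22 and 0.10. Of 9 markers of T, NK and B lymphocytes 3 passed the filter, with 3 above 0 against PBS, and 2 above and 1 below 0 against HEK-EV. Nkg7, a granule protein of NK and T cells, was the only one called, higher by 0.70 and 0.66 (adjusted p = 0.0424 and 0.0468), at 2.93 to 4.26 TPM in MSC-EV. Of the 8 macrophage markers Cd68 alone was called, higher by 0.33 in MSC-EV against HEK-EV (adjusted p = 0.0442), and of the 8 Kupffer cell markers none was, with 8 below 0 against PBS (median -0.67) and 7 against HEK-EV (median -0.50). Leaving out 1 HEK-EV sample moved the latter median to -0.90 (replicate 1) or -0.26 (replicate 3). All 6 liver endothelial markers were below 0 in both comparisons (medians -0.79 and -0.74) with none called, and their summed level ran from 113 to 225 TPM in MSC-EV, from 181 to 386 in HEK-EV and from 267 to 331 in PBS. Without the acinar-rich samples none of these marker calls held, while the medians were -1.07 and -1.12 for monocyte, 0.77 and 0.96 for hepatocyte, -0.92 and -0.71 for Kupffer cell and -1.06 and -0.92 for liver endothelial markers against PBS and HEK-EV. In the same order Krt19 was then at 1.66 and 1.62, Epcam at 1.10 and 0.76, Pf4 at 0.85 and 0.94, and Nkg7 at 0.65 and 0.72. Cd68 was at 0.365 against HEK-EV. The part of these other cells in the levels of the 10 genes was not tested.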

How the data were processed

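CD11b+ cells of mouse liver were sequenced in 9 samples, 3 per group, grouped by title. Reads were aligned with HISAT2 2.1.0 and quantified with StringTie on mm10, per the submitters' processing notes; libraries were TruSeq Stranded mRNA, per the labels' protocols. The annotation, the StringTie version and the strand setting are not given in the sources used here. The authors deposited coverage (mean read depth over a gene), FPKM (fragments per kilobase, scaled to the library's fragments) and TPM for each gene, per the file headers. TPM was the value tested, FPKM an alternative, and the ratio of coverage to FPKM a stand-in for depth. Gene IDs were matched to RefSeq symbols of GRCm38.p6 (45679 of 45777, 99.79%), and rows of a gene were summed. Coordinates are the files' own, equal to GRCm38.p6 for 96.37% of matched genes.

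Genes reaching 1 TPM in 3 or more samples were tested with limma 3.58.1 (R 4.3.3) on log2(TPM + 1), all 9 samples in 1 fit without covariates, two-sided, with Benjamini-Hochberg adjustment over 13820 genes and a threshold of 0.05. Fold changes are on that scale, which understates changes of low genes. Tables, motif searches and figures used Python 3.11.15 with pandas 2.3.3, numpy 2.4.6 and matplotlib 3.10.9. On 5 simulated data sets of 13820 genes for MSC-EV against PBS, with 200 changed genes, 94.0% of 2-fold and 99.0% of 4-fold changes were recovered, and 3.87% of calls were unchanged genes. The changed genes were drawn from genes of higher level only, with normal noise drawn for each gene on its own. Shifts shared by many genes of a sample were not simulated, so these rates check the code and need not hold for the real samples.

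The members and lists were chosen with earlier results of these data known. All members were named. Of the other lists, up to 4 genes of smallest p were named, with any gene of the small families (TREM, stefin A, resistin, deiminases, G0s2 partners, interleukin 1). Genes of like pattern were the 5 of highest Pearson correlation of log2(TPM + 1) with the mean of the standardised members, at a mean of at least 5 TPM. S100a8, S100a9, Ly6g, Csf3, Prg2, Epx and Ear6 fall outside this rule and were picked with their values known. Results were also computed with a pseudocount of 0.1, with no filter or one of 5 TPM, with FPKM, with median-of-ratios or quantile scaling, from the 6 samples of a comparison alone, with array quality weights, with a replicate block, with depth or acinar share as a covariate, without the 2 samples rich in acinar transcripts, and with each sample left out in turn.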

Additional observations from a re-analysis of the deposited data

How the results depend on the processing

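Over 210 fits of the 10 genes in MSC-EV against HEK-EV (21 alternatives), 154 kept their sign and their side of the threshold, 36 lost a call, 19 gained one and 1 turned its sign. The 3 genes called there became 0 with no filter and without the 2 samples rich in acinar transcripts. They became 1 with FPKM, median-of-ratios scaling, quantile normalization or acinar share as a covariate. They became 6 with only the 6 samples compared (1120 of all genes called), and 7 with array quality weights (2081) or depth as a covariate (1449). With 1 sample left out they ranged from 0 to 6. In MSC-EV against PBS the count of 0 became 3 with array quality weights (Mmp9, Padi4, Stfa2l1), where 4163 of the 13820 genes tested were called. It became 2 with depth as a covariate (Mmp9, Padi4), where 1339 genes were called. With 1 sample left out it ranged from 0 to 3, the 3 coming without PBS replicate 1, where 1881 genes were called. In HEK-EV against PBS the count of members called stayed 0 under all 21. Members without overlap between MSC-EV and HEK-EV numbered 8 to 10 over the settings run. The share of all genes without overlap is given only for the TPM of all samples, at 17.5% lower in MSC-EV.

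Of all genes, the 706 called in MSC-EV against PBS became 361 with no filter, 167 with 6 samples, 4163 with array quality weights, 1339 with depth as a covariate, and 0 without the acinar-rich samples or with acinar share as a covariate (with 1 sample left out, from 5 without PBS replicate 2 to 1881 without PBS replicate 1). The 817 in MSC-EV against HEK-EV became 387 with no filter, 436 with FPKM, 512 with median-of-ratios scaling, 2081 with array quality weights, 1449 with depth, 0 without the acinar-rich samples and 463 with acinar share (with 1 sample left out, from 0 when MSC-EV replicate 1, MSC-EV replicate 2 or HEK-EV replicate 2 was dropped to 1384 without PBS replicate 1). The 0 in HEK-EV against PBS became 4 with no filter (0 to 2 with 1 sample left out). The share of calls that were higher was 36.4% in MSC-EV against PBS and 25.6% against HEK-EV, but 58.7% and 54.8% with FPKM and 47.2% and 46.3% with median-of-ratios scaling. The cause of these shifts was not tested.

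In MSC-EV against PBS, Csf3r turned to 0.021 with FPKM, 0.103 with quantile normalization, 0.006 without the acinar-rich samples and 0.049 with acinar share, and ranged from -0.081 (without PBS replicate 1) to 0.04 (without PBS replicate 3) with 1 sample left out, being 0.006 without MSC-EV replicate 3. G0s2 turned to 0.059 with acinar share. Leaving out 1 sample, G0s2 ranged from -0.301 to 0.17 and Retnlg from -0.818 to 0.004, both highest without PBS replicate 3. In HEK-EV against PBS, depth as a covariate turned Mmp8 to -0.004, Mmp9 to -0.048 and Padi4 to -0.189. Leaving out 1 sample there, Il1r2 ranged from -0.052 to 0.317, Mmp8 from -0.077 to 0.375 and Padi4 from -0.068 to 0.303, the first 2 lowest without HEK-EV replicate 3 and Padi4 without PBS replicate 1. In MSC-EV against HEK-EV, Il1r2 ranged from -0.002 (without HEK-EV replicate 1) to 0.368 (without HEK-EV replicate 3).

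Whether the replicate numbers pair the samples is not known. Samples of the same number correlated between -0.499 and 0.058 in their deviations from the group means, and samples of different numbers between -0.277 and 0.5475. Such deviations cancel within a group, so these values cannot decide it. With the number as a block, 4 members were called in MSC-EV against HEK-EV (Mmp9, Padi4, Retnlg and Stfa2l1) and 1 in MSC-EV against PBS (Padi4), and 448 and 404 genes in all, with none in HEK-EV against PBS. Depth is unknown, so no detection limit was computed.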
